A study of Rattus norvegicus with 30 samples.

Results

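The comparison described here is that of delayed with immediate repair of a cut rat median nerve, 7 days after the repair. It rests on 9 of the 30 libraries of the series, 5 from delayed and 4 from immediate repair, chosen by their labels. All animals were adult female rats of genotype WT. The surgery removed the continuity of the median nerve, a nerve of the forelimb, over 8 mm, and the stumps were joined by a 10 mm conduit of chitosan, a polysaccharide derived from chitin. In the delayed group the tube was placed 3 months after the injury, and in the immediate group it was placed at the time of injury. At day 7 after repair the contents of the tube were taken, and their poly(A) RNA was sequenced. The remaining libraries served as context: 4 delayed and 4 immediate libraries at day 14, 3 delayed and 5 immediate libraries at day 21, and 5 libraries of healthy, untreated nerve (day 0).

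The design asks whether a wait before repair changes the tissue that first fills the tube. Delayed samples were also taken later after the injury, so waiting and the age of the injury and of the animal cannot be told apart. Replicates are numbered in the labels with no statement that they were separate animals, and no batch is given. The p-values therefore measure the spread between these samples, which may be technical. In bulk tissue, fewer cells of a type and less RNA per cell cannot be told apart. The Ensembl gene IDs of the count table were not paired with gene symbols in the sources used here (0 matched). No gene is therefore given a function, the labelled tissue was not checked against marker genes, and no sequence is shown.

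When a nerve is cut, the part beyond the cut degenerates, and its Schwann cells leave the myelinating state for a repair state that clears debris and guides new axons. In a tube that bridges a gap, a fibrin clot and inflammatory cells come first, followed by fibroblasts, blood vessels and Schwann cells that migrate in from the stumps. Schwann cells that wait long without axons are known to lose part of their supportive state, a reason why the delay before repair matters in surgery.

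Total counts of the 9 day 7 libraries lay between 11958242 and 17334752, and 16015 of the 32545 listed genes had enough counts to be tested. Delayed replicate 5 and immediate replicate 4 stood apart from the rest, at opposite ends of the leading principal component of log2 CPM (counts scaled to a common library size by TMM factors). That component held 50.4% of the variance among the 9 libraries, with delayed replicate 5 at 133 and immediate replicate 4 at -123.1. The other 4 delayed libraries lay between -86.4 and 48.3, and the other 3 immediate libraries between -37.2 and 55.9, so the repairs were interleaved. The next component held 17.7% and set delayed replicate 5, at 93.5, above all others (the highest of which, immediate replicate 4, lay at 53.5). The comparisons between the repairs are given with and without delayed replicate 5, and immediate replicate 4 is named where it changed a value.

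**Figure D1:**
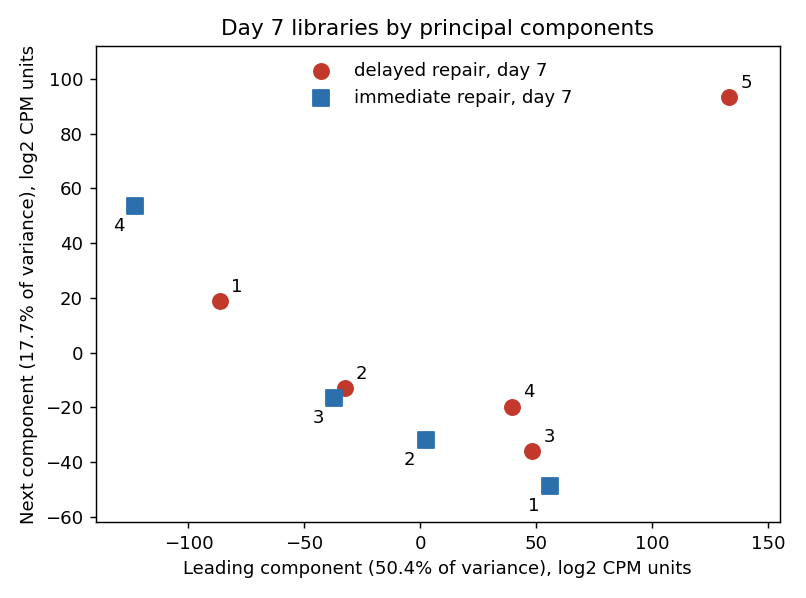
Position of the 9 day 7 libraries on the 2 leading principal components of log2 CPM over the 16015 tested genes, with replicate numbers beside the points. Red circles are delayed and blue squares immediate repair: the groups are interleaved along the horizontal axis, with delayed replicate 5 (133) and immediate replicate 4 (-123.1) at its ends.

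Whole profiles did not group by repair. The median Spearman correlation across genes was 0.932 over the 10 pairs of delayed libraries, 0.951 over the 6 pairs of immediate libraries, and 0.955 over the 20 pairs that crossed the repairs. Without delayed replicate 5 it was 0.958 over the 6 delayed pairs and 0.961 over the 16 crossing pairs. The highest correlation of any pair, 0.987, joined delayed replicate 2 and immediate replicate 3. For 7 of the 9 libraries the most similar library belonged to the other repair; the exceptions were delayed replicates 4 and 5. These are descriptions across genes, which share library and depth.

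In single values per library the repairs overlapped, and the tests found no difference larger than the spread between libraries. The Spearman correlation with the mean of the 8 day 14 libraries, a measure of likeness to the next sampled stage, was 0.834, 0.877, 0.939, 0.936 and 0.918 in delayed replicates 1 to 5, and 0.939, 0.907, 0.875 and 0.809 in immediate replicates 1 to 4. Both groups held low and high libraries. The group means were 0.901 ± 0.045 (SD, n = 5) for delayed and 0.882 ± 0.055 (n = 4) for immediate repair (p = 0.571 by an exact permutation test, two-sided; adjusted p = 0.651 over 3 such tests). The number of genes seen at equal depth averaged 17138 ± 271 (SD, n = 5) in delayed and 16692 ± 456 (n = 4) in immediate libraries (exact permutation p = 0.111, adjusted p = 0.333). The 100 most abundant genes of a library took 29.5 ± 1.6% of its counts in delayed and 29.1 ± 0.54% in immediate libraries (exact permutation p = 0.651, adjusted p = 0.651). The smallest p these groups allow is 0.0159. Without delayed replicate 5 the 3 exact permutation tests gave p = 0.743, 0.200 and 0.943, where the smallest possible is 0.0286.

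After delayed repair 111 genes rose (0.693% of the 16015 tested) and 3 fell (0.0187%), together 0.712%, by the quasi-likelihood test of edgeR at an adjusted p under 0.05. The rises ranged from 2.02 to 14.8 in log2 fold change, delayed over immediate. They concerned genes that were scarce in the immediate libraries: the median of their immediate means was 0.179 CPM, the highest was 7.13 CPM, and 8 of them had 0 counts in all 4. Most calls were marginal, with 102 of the 114 adjusted p-values (edgeR) between 0.045 and 0.0497 and the lowest at 0.0105. The spread within a group, as a biological coefficient of variation, was 61.1% in the delayed and 52.9% in the immediate libraries, against 20.5% in healthy nerve. It was 46.9% in the delayed libraries without replicate 5, and 39.4% in the immediate libraries without replicate 4. The 30 libraries share an estimate of spread in this test, and when the 9 day 7 libraries were fitted alone no gene was called (249 of 13603 with an unadjusted p under 0.05, against 1352 in the fit of 30 libraries). With delayed replicate 5 left out, 1 gene was called (0.00625% of 15997), and 665 genes (4.16%) had an unadjusted p under 0.05, against 8.44% with it. The count also turned on other libraries: it was 360, 320, 232 and 189 without delayed replicate 1, 2, 3 or 4, and 0, 3, 0 and 0 without immediate replicate 1, 2, 3 or 4.

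**Figure D2:**
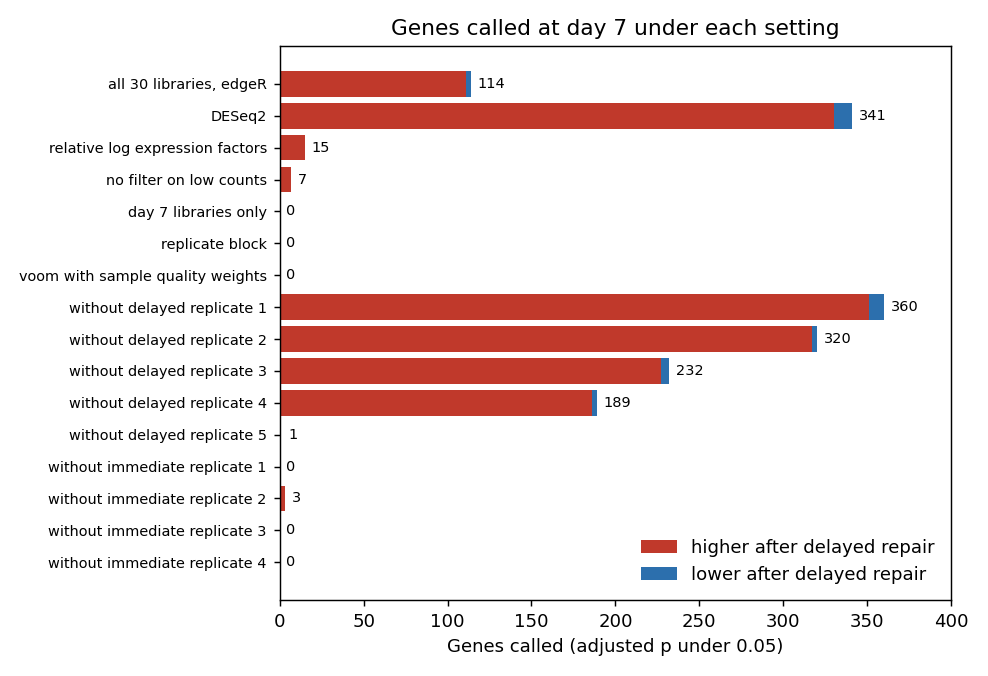
Number of genes called different at day 7 (adjusted p under 0.05) under each setting, red for higher and blue for lower after delayed repair, with totals beside the bars. The count was 114 with edgeR on all 30 libraries, 341 with DESeq2, 0 with the day 7 libraries alone, 1 without delayed replicate 5, and between 0 and 3 without an immediate library.

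The 111 rises were divided by setting each gene's value in delayed replicate 5 beside the 5 healthy nerves. In 35 rises replicate 5 exceeded every healthy nerve by more than 10 times, in 58 it lay within or below the range of healthy nerve, and in 18 it lay between. This division was made after the values were seen and is a description only. A gene without an extreme value in replicate 5 could be called mainly when other delayed libraries were high too. The contrast between the parts therefore follows in part from how they were picked. The day 7 values of the rises chose them and are likewise given as a description.

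The 35 genes far above healthy nerve were, by their median, high in delayed replicate 5 and in no other library. The median was 608 CPM in replicate 5, and 0.281, 0.283, 0.446 and 0.410 CPM in delayed replicates 1 to 4, against 0.257, 0.228, 0.210 and 0.180 CPM in immediate replicates 1 to 4. Together they took 7.08% of the counts of delayed replicate 5 and at most 0.00418% of any other day 7 library. Healthy nerve held them at library medians of 1.04 to 1.20 CPM, and at day 14 the middle of the library medians was 0.717 CPM for delayed repair, against 0.621 CPM for immediate repair. Their median log2 fold change was 8.86 with delayed replicate 5 and 0.61 without it, over the 33 still tested. Delayed replicates 3, 4 and 5 all lay above the 4 immediate libraries in 4 of the 35.

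The 58 genes within or below the range of healthy nerve were high in several delayed libraries. Their median was 0.188, 0.283, 2.29, 4.74 and 11.1 CPM in delayed replicates 1 to 5, against 0.257, 0.0760, 0.105 and 0.0901 CPM in immediate replicates 1 to 4. Delayed replicates 3, 4 and 5 lay above the immediate range, delayed replicate 1 lay within it, and delayed replicate 2 lay just above it. In all 58 genes those 3 delayed libraries lay above all 4 immediate ones, which was so in 4.45% of all tested genes. Delayed replicate 1 lay above all 4 immediate libraries in 17 and delayed replicate 2 in 18 of the 58, beside 19.9% and 14.7% of all tested genes. Their median log2 fold change was 4.64 with delayed replicate 5 and 3.28 without it. Of the 58 genes 57 then had an unadjusted p under 0.05 (edgeR), beside 4.16% of all tested genes. A single gene passed the adjustment over all genes. The remaining day 7 libraries had also served to call these genes, so these values are no independent support.

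In healthy nerve the same 58 genes were plentiful, with library medians of 48.7 to 59.1 CPM, and all 5 healthy nerves lay above all 4 immediate day 7 libraries in each of them. Over all tested genes that held in 31.7%; in the 58 it is in part set by how they were picked, since delayed replicate 5 lay above the immediate libraries and not above healthy nerve. By day 14 the library medians reached 14.9 to 29.1 CPM in delayed libraries, against 11.9 to 30.2 CPM in immediate ones. At day 21 they were 15.8 to 29.1 CPM in delayed libraries, against 21.8 to 35.5 CPM in immediate ones. The repairs overlapped on both later days.

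**Figure D3:**
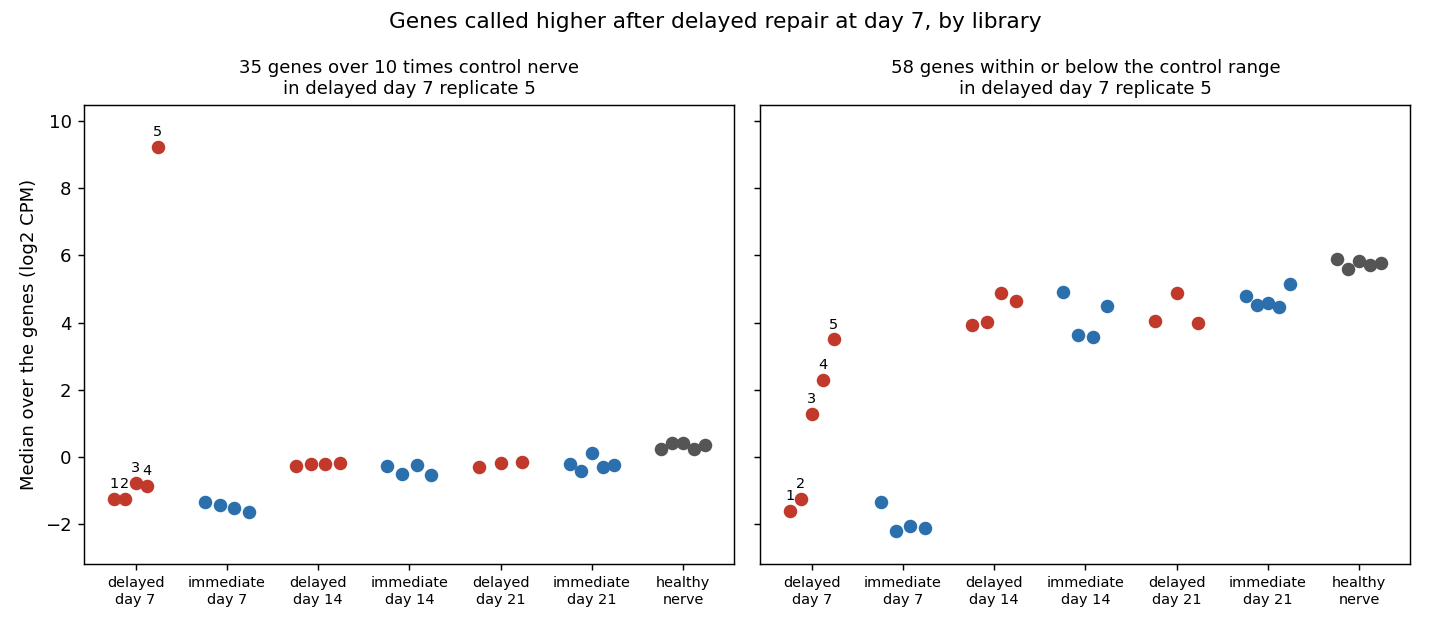
Median log2 CPM of the 35 (left) and the 58 (right) genes in each library, by group, with replicate numbers beside the delayed day 7 points; red is delayed, blue immediate, grey healthy nerve. On the left delayed replicate 5 alone is high, while on the right delayed replicates 3, 4 and 5 lie between the immediate day 7 libraries and the level of days 14 and 21.

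Genes abundant in healthy nerve were also described as a list chosen without the day 7 libraries. It held the 635 tested genes that were at least 4-fold higher in each healthy nerve than in each day 14 library and averaged at least 1 log2 CPM in healthy nerve. Its library medians were 0.188, 0.212, 0.382, 0.341 and 1.63 CPM in delayed replicates 1 to 5, against 0.322, 0.228, 0.210 and 0.0901 CPM in immediate replicates 1 to 4, and 38.7 to 42.2 CPM in healthy nerve. By these low medians delayed replicates 1 and 2 lay within the immediate range, and replicates 3 and 4 just above it. Replicate 5 lay well above it but far below healthy nerve. Summed CPM gave another order: 14917, 11476, 6962, 9210 and 19967 in delayed replicates 1 to 5, against 8377, 8372, 13403 and 7365 in immediate replicates 1 to 4. By that measure delayed replicate 1 lay above all immediate libraries and replicate 3 below all of them. The median log2 fold change of the list was 0.59 with delayed replicate 5 and 0.04 without it, beside 0.04 and 0.02 over all tested genes. Of the 635 genes 14 rose (2.20%, beside 0.693% of all tested), none fell, and none was called without delayed replicate 5. By its medians the list was scarce at day 7. Scarce genes were called more often, with 65 of the 114 calls among the 3091 tested genes at a mean log2 CPM under 0. The 2.20% is therefore not read as particular to the list. The list shared 10 genes with the 58.

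The largest rise by the rule for named genes was ENSRNOG00000019745. It measured 2.06, 2.47, 2.61, 1.16 and 3420 CPM in delayed replicates 1 to 5, against 0.129, 0.380, 1.75 and 0.901 CPM in immediate replicates 1 to 4. Delayed replicate 5 stood far above the other delayed libraries, which lay near the 1.5 to 2.63 CPM of healthy nerve. With that library the log2 fold change was 9.76 (SE 2.03, edgeR adjusted p = 0.0491), and without it 1.39 (SE 0.46, edgeR adjusted p = 0.744).

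The next largest rise, ENSRNOG00000017645, was also high in a single library. It measured 0.750, 2.62, 3.37, 3.00 and 3328 CPM in delayed replicates 1 to 5, against 1.29, 1.60, 1.40 and 4.24 CPM in immediate replicates 1 to 4. Delayed replicate 5 alone lay above the immediate range. The log2 fold change was 8.31 (SE 1.95, edgeR adjusted p = 0.0491) with it and 0.21 (SE 0.63, edgeR adjusted p = 1.000) without it.

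ENSRNOG00000019689 was the gene called without delayed replicate 5, and it had the lowest adjusted p with all libraries as well. It was picked for that call. It measured 4.03, 3.53, 10.4, 20.0 and 33.3 CPM in delayed replicates 1 to 5, against 0.965, 1.06, 1.61 and 1.08 CPM in immediate replicates 1 to 4. All 5 delayed libraries lay above all 4 immediate ones. The group means were 14.3 ± 12.5 CPM (SD, n = 5) and 1.18 ± 0.29 CPM (n = 4), and the log2 fold change was 3.59 (SE 0.55) at an edgeR adjusted p of 0.0105. Leaving out delayed replicate 5 gave 3.01 (SE 0.48) at an edgeR adjusted p of 0.0273. The call was then lost when delayed replicate 3 (0.0983) or 4 (0.195), or immediate replicate 1 (0.149), 2 (0.0841), 3 (0.104) or 4 (0.243), was also left out, the values being edgeR adjusted p. Fitted on the day 7 libraries alone without replicate 5, the log2 fold change was 2.97 and the edgeR adjusted p 1.000. Healthy nerve held 154 ± 18.9 CPM (SD, n = 5), and at day 14 the gene measured 88.3 ± 20.5 CPM (n = 4) in delayed libraries, against 83.6 ± 40.0 CPM (n = 4) in immediate ones.

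Each of the 3 falls had its highest value in immediate replicate 4. ENSRNOG00000013395, the largest that met the rule, measured 1.5, 1.70, 1.15, 1.84 and 1.19 CPM in delayed replicates 1 to 5, against 3.99, 1.22, 1.89 and 26.7 CPM in immediate replicates 1 to 4. The groups overlapped, and the log2 fold change, -2.51 with all libraries (SE 0.59, edgeR adjusted p = 0.0491), came to -0.68 without immediate replicate 4 (edgeR adjusted p = 0.944). Without delayed replicate 5 it was -2.44 (SE 0.64, edgeR adjusted p = 0.369). ENSRNOG00000023214 measured 6.19, 4.24, 3.76, 6.21 and 3.88 CPM in delayed replicates 1 to 5, against 7.33, 10.0, 5.73 and 38.0 CPM in immediate replicates 1 to 4. Its log2 fold change was -1.65 (SE 0.37, edgeR adjusted p = 0.0491), and -0.67 without immediate replicate 4 (edgeR adjusted p = 0.459). Without delayed replicate 5 it was -1.58 (SE 0.40, edgeR adjusted p = 0.357). Both calls were also lost without immediate replicate 1, 2 or 3, at edgeR adjusted p-values of 0.0529 to 0.135 and with larger folds, and that of ENSRNOG00000013395 without delayed replicate 3 (0.0581). The third fall, under the level the rule asked for, had 0.250 to 1.98 CPM in the delayed libraries, against 0.643, 0.304, 2.31 and 84.8 CPM in immediate replicates 1 to 4. Its log2 fold change was -4.64 with all libraries (edgeR adjusted p = 0.0491) and -4.39 without delayed replicate 5 (edgeR adjusted p = 0.369). Without immediate replicate 4 it was -0.31.

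**Figure D4:**
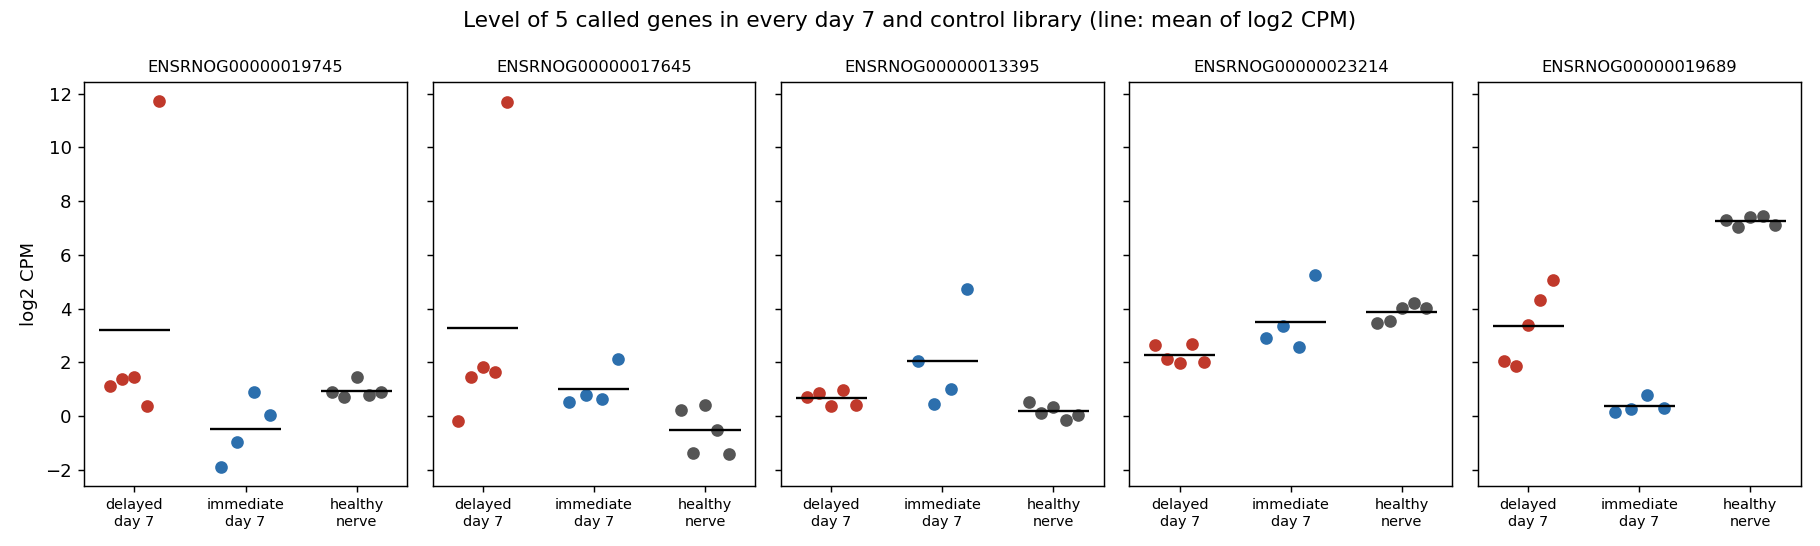
Log2 CPM of the 5 genes named by ID in every delayed day 7 (red), immediate day 7 (blue) and healthy nerve (grey) library, in order of replicate number; lines mark group means. Delayed replicate 5 alone is high in the 2 genes at left, immediate replicate 4 is highest in the next 2, and in ENSRNOG00000019689 all delayed libraries lie between immediate repair and healthy nerve.

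Genes whose 5 delayed libraries did not overlap the 4 immediate libraries were few, 60 in all or 0.375% of those tested, with 42 higher (0.262%) and 18 lower (0.112%) after delayed repair. Those higher had a median log2 fold change of 1.65 (0.15 to 6.07), and 23 of them differed at least 2-fold. Those lower had a median of -0.95 (-2.41 to -0.29), and 9 differed at least 2-fold. Of the 60 genes 8 were called, all of them rises. These 8 had library medians of 0.422 to 4.32 CPM at day 7 of delayed repair, against 0.0643 to 0.210 CPM at day 7 of immediate repair, and 64.5 to 75.4 CPM in healthy nerve. In all 8 every healthy nerve lay above the 4 immediate day 7 libraries, which was so in 86.5% of the rises and 31.7% of all tested genes. Their median log2 fold change was 4.01, and 3.22 without delayed replicate 5. These 8 genes were chosen with all 5 delayed libraries above all 4 immediate ones. A positive value without delayed replicate 5 therefore follows from the selection. Without delayed replicate 5, 113 genes (0.706%) did not overlap between 4 delayed and 4 immediate libraries, 75 higher (0.468%) and 38 lower (0.237%). Random labels would separate a gene without ties in this way with a chance of 0.0159 for 5 against 4 libraries, and 0.0286 for 4 against 4. Both observed shares lay below these, so the separated genes are a description only.

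Most genes seen after delayed repair alone were seen in delayed replicate 5. Of all 32545 listed genes, 184 had 0 counts in the 4 immediate day 7 libraries and at least 10 counts in a delayed one. In 165 of these no delayed library but replicate 5 reached 10 counts, and in 15 at least 2 delayed libraries did. The reverse, 0 counts in all 5 delayed libraries and at least 10 counts in an immediate one, was found in 3 genes, each time in immediate replicate 4. Replicate 5 was the most deeply counted of the 9 libraries and immediate replicate 4 the least, at 17334752 and 11958242 counts, and the part of depth in these numbers was not tested.

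Under the spread shared by all 30 libraries, the data bounded the difference for most genes of middle and high level. Where the mean log2 CPM at day 7 was 3 to 6 (6152 genes), the distance from the estimate to the end of the 95% interval of the log2 difference was 0.38 in the median gene, and 84.0% of genes had an interval inside 2-fold in both directions. Above 6 (3152 genes) these values were 0.34 and 88.6%, and no gene was called. Between 0 and 3 (3620 genes) the distance was 0.89 and 37.2% of intervals lay inside 2-fold, and below 0 (3091 genes) it was 1.80 and 4.04%. Of the 114 calls 65 lay below 0, 47 between 0 and 3, and 2 between 3 and 6. Without delayed replicate 5 the shares inside 2-fold were 6.44% below 0, 36.8% from 0 to 3, 84.7% from 3 to 6 and 89.0% above 6. In scarce genes a difference inside such an interval was not detectable with these libraries. The intervals use the spread estimated over all 30 libraries, which include groups less variable than those of day 7. They may therefore be too narrow for this comparison.

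With delayed replicate 5 the estimated fold changes leaned upward, and without it they leaned less. At least 2-fold differences, called or not, numbered 1581 higher and 400 lower with all libraries (12.4% of genes), and 905 higher and 538 lower without delayed replicate 5 (9.02%). The median over all genes was 0.04 with it and 0.02 without it, in log2. Of the 111 rises 109 could be tested without that library, 105 of them with a positive log2 fold change. The median over the 109 was 2.43 (-1.46 to 7.23). The remaining day 7 libraries had also served to call the rises, so positive values follow in part from the selection.

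**Figure D5:**
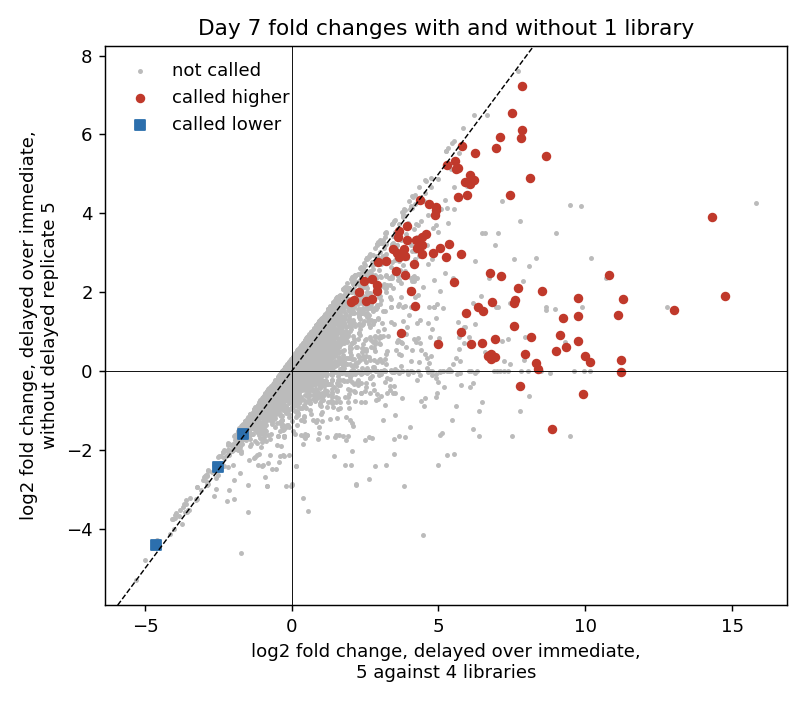
Log2 fold change of each gene, delayed over immediate, with all 9 day 7 libraries (horizontal) and without delayed replicate 5 (vertical); the dashed line marks equal values, red points are the called rises still tested and blue squares the 3 falls. The rises spread from near the dashed line to values around and below 0 on the vertical axis (-1.46 to 7.23, median 2.43), while the falls stay on the line.

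Whether the day 7 difference differed from that on later days was tested as an interaction, the day 7 difference minus the mean of the day 14 and day 21 differences. It passed for 7 genes (0.0437% of those tested), all of them among the 111 rises, at log2 values of 3.60 to 8.09 (edgeR adjusted p = 0.0477 to 0.0478), and for 1324 genes (8.27%) at an unadjusted p under 0.05. In 6 of the 7 delayed replicate 5 held the highest value. Without that library no gene passed, with 822 at an unadjusted p under 0.05 (edgeR), and DESeq2 on all libraries called 215. No gene passed either without delayed replicate 4 or without any of the 4 immediate libraries, while 199 and 174 passed without delayed replicate 1 or 2. ENSRNOG00000019689 was among the 7, at 3.60 (SE 0.63, edgeR adjusted p = 0.0477), a value that includes the day 7 difference for which it was picked.

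At day 14 and day 21 none of the 114 genes was called between the repairs in the edgeR fit. The median log2 fold change of the 111 rises was 0.07 at day 14 (median SE 0.88, 61 of 111 positive) and -0.40 at day 21 (median SE 0.92, 23 of 111 positive), beside -0.01 and -0.02 over all tested genes. An unadjusted p under 0.05 was reached by none of the 111 at day 14 and by 4 at day 21. Each gene's spread was estimated over all 30 libraries, delayed day 7 replicate 5 among them. Genes with an extreme value there carry a large SE on the later days too. For ENSRNOG00000019745 the SE at day 14 was 1.74, with delayed libraries at 0.597 to 1.05 CPM and immediate ones at 0.678 to 1.36 CPM. For such genes the lack of a later call says little. Over all tested genes no call was made at day 14 and 8 (0.050%) at day 21, with 244 (1.52%) and 911 (5.69%) genes at an unadjusted p under 0.05. DESeq2, which called 341 genes at day 7, shared 4 of them at day 14 or day 21. The edgeR shares above are no background for that count, and the DESeq2 share over all genes on those days is not given.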

How the data were processed

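The authors deposited raw counts of reads for each gene, with a column for each library. Per the labels' protocols, RNA had an integrity number above 6, mRNA was captured on poly(T) beads from 400 ng, and libraries do not mark strand, so overlapping and antisense genes cannot be told apart; near-identical genes may share reads. Named in the submitters' processing notes, without their roles, are DESeq2 1.38.3, featureCounts 1.5.0-p3 and HISAT2 2.0.5. The genome build is not given in the sources used here.

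The tests used edgeR 4.0.16 under R 4.3.3: filterByExpr by group (16015 of 32545 genes kept), TMM factors, and the robust quasi-likelihood test over 30 libraries in 7 groups, which share an estimate of spread, with Benjamini-Hochberg adjustment at 0.05. Standard errors were taken from the test statistic. CPM used TMM-scaled library sizes, and log2 CPM a prior count of 2. Equal depth was 11958242 counts. Library values were compared by exact permutation in SciPy 1.17.1. No pair of replicates at day 7 agreed within sampling noise (lowest chi-square per degree of freedom 73.4). Alternatives were DESeq2 1.42.0, relative log expression factors, no filter, the day 7 libraries alone, the replicate number as a block, limma 3.58.1 voom with sample weights, and leaving out each day 7 library.

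Named genes were, in the absence of symbols, the 2 largest rises and 2 largest falls among called genes whose mean log2 CPM at day 7 reached 1, and any gene called without delayed replicate 5. The lists of cell type and pathway genes written by symbol could not be used. Lists and comparisons were chosen with earlier results of these data known.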

Additional observations from a re-analysis of the deposited data

Results flagged for a closer look

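In delayed day 7 replicate 5, ENSRNOG00000019745 stood at a log2 CPM of 11.7, while the other 4 delayed libraries lay between 0.38 and 1.46. In the same library ENSRNOG00000017645 stood at 11.7, while the others lay between -0.17 and 1.81. Both gaps exceeded Dixon's limit for a single outlying value in a group of 5. Such a limit is passed by about 1 in 20 groups by chance, but that rate does not apply here, since both genes were chosen as the largest rises and delayed replicate 5 carried those rises. The values are a description. The difference between the repairs in ENSRNOG00000019689 was larger at day 7 than on the later days, by 3.60 in log2 (SE 0.63, edgeR adjusted p = 0.0477), with all 5 delayed day 7 libraries above all 4 immediate ones. That gene was picked for its day 7 difference, which is part of this value. Without delayed replicate 5, or without any of the immediate day 7 libraries, no gene passed this test.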

How the results depend on the processing

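The count of 114 genes called at day 7 became 341 with DESeq2, of which only 72 were among the 114. It became 15 with relative log expression factors and 7 with no filter on low counts. It was 0 with the day 7 libraries alone, with limma voom and sample weights, or with the replicate block. Leaving out a library gave 0 to 360 calls (0 without immediate replicate 1, 3 or 4, 3 without immediate replicate 2, 1 without delayed replicate 5, and 189 to 360 without another delayed library). The 1 call without delayed replicate 5 became 69 with DESeq2, of which 46 were among the 111 rises, and 0 with the day 7 libraries alone, with voom or with the replicate block. Leaving out a further library gave 0 to 28. The 7 interaction calls became 215 with DESeq2, and 0 without the filter, with relative log expression factors, without healthy nerve in the fit, with the replicate block or with voom, and 0 to 199 with a library left out. The count of 0 day 7 genes also called later became 4 with DESeq2 and stayed 0 in the other alternatives. Without the DESeq2 share over all genes on those days, the 4 cannot be read as many or few. The causes were not tested. Same-numbered libraries of the repairs deviated from their group means with correlations of -0.66 to -0.11 across genes, and none correlated best with its own number. No pairing by number was therefore seen, but so few pairs cannot exclude it. The 2 named rises and 2 named falls kept their direction in every alternative that gave a value, and their calls in 4, 4, 4 and 5 of 14, 14, 15 and 15. The gene called without delayed replicate 5 kept its call in 5 of 14. DESeq2 gave no adjusted p for 187 genes with all libraries, the 2 named rises among them, and so could not call these. The overlap of 72 is limited by that, to an extent not counted here. Depth limits the precision of genes with low counts, where most calls lay.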
